A study of Mus musculus with 16 samples.

Results

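The 10 genes described here encode the protein parts of plasma lipoproteins that the liver makes, Apoa1, Apoa2, Apoa4, Apoa5, Apob, Apoc1, Apoc2, Apoc3 and Apoe, together with Mttp, which encodes the large subunit of the microsomal triglyceride transfer protein. They were chosen by symbol as a functional group, with earlier results of these data known, and all 10 were found among the 35275 Ensembl gene IDs of the deposited table. All 10 were also among the 11298 genes that were tested, those with at least 1 FPKM in at least 4 of the 16 libraries. FPKM counts fragments per kilobase of gene relative to the size of the library, so levels of different genes can be set side by side.

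Hepatocytes build very low density lipoprotein by loading lipid onto a single Apob molecule in the endoplasmic reticulum, a step that needs Mttp. Apoa1 and Apoa2 are the main proteins of high density lipoprotein, and the small Apoc proteins and Apoe move between particles, where they steer lipolysis and receptor uptake. Apoa5 and Apoc2 favour the hydrolysis of plasma triglyceride by lipoprotein lipase, Apoc3 opposes it, and Apoa4 is a lipid-binding apolipoprotein of nascent triglyceride-rich particles. In the mouse, several of these genes sit in 2 clusters.

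Total RNA of mouse livers was sequenced in a design that crossed genotype with diet. Wild-type mice (WT) and mice with a liver-specific knockout of Zfp36l1 (labelled L1 LKO, written LKO here) were fed control or ethanol diet, which makes 4 groups with 4 libraries each. The ZFP36L1 protein attaches to AU-rich messenger RNA and promotes its decay, and the title of the series names the turnover of Fgf21 messenger RNA and alcoholic steatosis as its subject. The driver of the deletion, strain, sex, age, feeding time and diet composition are not given in the sources used here, nor is it said whether each library came from a separate animal, so p-values measure the spread between these libraries.

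Zfp36l1 lay at 9.30 to 25.5 FPKM in the 8 WT libraries and at 0.572 to 1.76 in the 8 LKO libraries. Total reads per library, worked out from the steps of the FPKM values, ranged from 9890475 to 24768569. The library with the fewest, WT ethanol library 2, stood apart: 22.5% of its reads came from the mitochondrial genome, against 3.64 to 6.97% in the 15 others. Most values of members and named genes that rest on it are therefore given with and without it. Without it, the first within-group component (39.96% of the variance) divided the libraries of each group into 2 sides, libraries 1 and 2 on the first side and 3 and 4 on the other, with no batch named in the labels. WT ethanol was left with only library 1 on the first side. The sides were set from these same values, so adjusted p-values of fits with a term for them tend to be too small. The summed level of 7 hepatocyte markers was 44800 to 79400 FPKM in those 15 libraries and 33600 in WT ethanol library 2. Whole liver was measured, so fewer cells of a type and less RNA per cell cannot be told apart.

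The members were among the most abundant transcripts of the liver. In the 15 libraries they held 7.77 to 11.01% of all FPKM, and in WT ethanol library 2 they held 14.1%. By mean FPKM over the 16 libraries, Apoe ranked 2 among all genes, Apoa2 4, Apoa1 6, Apoc1 12 and Apoc3 18. Apoa5 ranked 84, Apoa4 118, Apoc2 146, Apob 211 and Mttp 620. The order of the medians over the 16 libraries was Apoe (18480 FPKM), Apoa2 (11900), Apoa1 (6996), Apoc1 (5886), Apoc3 (3618), Apoa5 (734.8), Apob (338.8), Apoc2 (338.7), Apoa4 (234.3) and Mttp (108.2). Over the 15 libraries the range of each gene overlapped that of its neighbour in this order, except between Apoc3 (at least 2414) and Apoa5 (at most 1035). The reads behind the values were many, from at least 331564 per library for Apoe to at least 587 for Mttp and 854 for Apoa4.

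**Figure D1:**
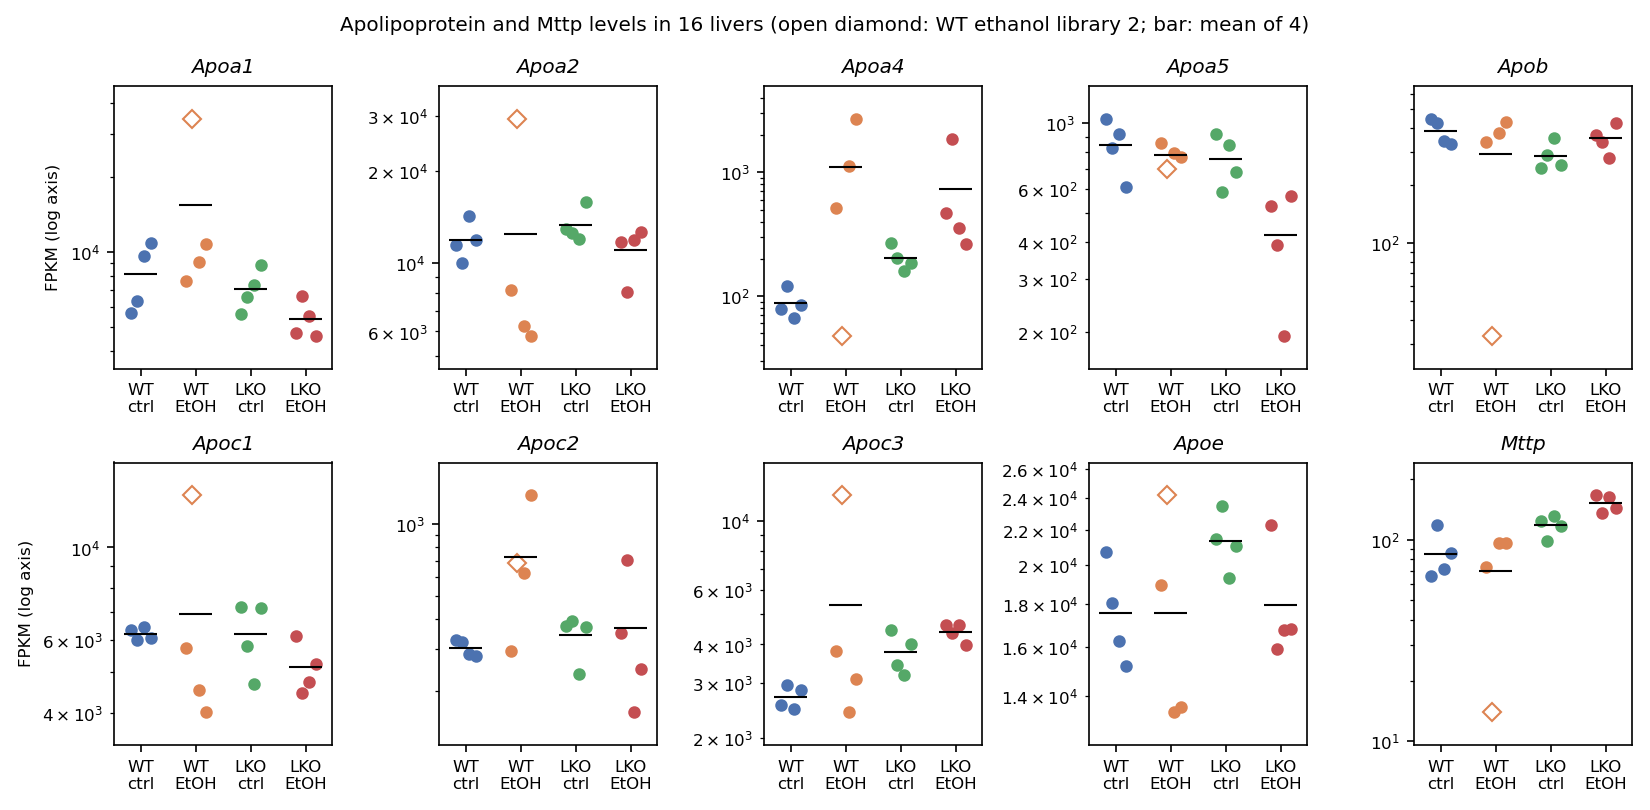
FPKM of the 10 members (log axis) in each of 4 libraries per group, with a bar at the group mean and WT ethanol library 2 as an open diamond. That library is the highest of all 16 for Apoa1, Apoa2, Apoc1, Apoc3 and Apoe and the lowest for Apoa4, Apob and Mttp, while the other WT ethanol libraries show high Apoa4.

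The clusters, on GRCm38, were as follows. On chromosome 9, Apoa1 (ENSMUSG00000032083, 46228580 to 46230466, plus strand), Apoc3 (ENSMUSG00000032081, 46232933 to 46235636, minus strand), Apoa4 (ENSMUSG00000032080, 46240696 to 46243459, plus strand) and Apoa5 (ENSMUSG00000032079, 46268633 to 46271919, plus strand) follow each other with 2466, 5059 and 25173 bases between them. On chromosome 7, Apoc2 (ENSMUSG00000002992, 19671579 to 19677941), Apoc1 (ENSMUSG00000040564, 19689481 to 19692660) and Apoe (ENSMUSG00000002985, 19696109 to 19699188) lie on the minus strand. Apoc4, another apolipoprotein gene, lies 141 bases from Apoc2, and 3448 bases separate Apoc1 from Apoe. Apoa2 (ENSMUSG00000005681) is on chromosome 1 (171225054 to 171226379, plus strand), Apob (ENSMUSG00000020609) on chromosome 12 (7977648 to 8016835, plus strand) and Mttp (ENSMUSG00000028158) on chromosome 3 (138089854 to 138144968, minus strand). All 10 are annotated as protein-coding. A read-through gene of GENCODE M21 on the same strand spans Apoc2 and Apoc4, and how reads in that overlap were counted is not given in the sources used here, nor is the use of strand.

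Because the deleted gene encodes a binder of AU-rich RNA, the 3′ untranslated region of each member was searched for TATTTAT, the DNA form of its core site, on the transcript strand. The longest annotated region of each gene in GENCODE M21 was used. Mttp held 2 copies in 1201 bases, and no copy was found in the regions of the other 9 members, which were 64 to 1185 bases long. The 2 Mttp stretches, with the 7-mer in capitals, begin 585 and 1015 bases into the region (position of the 7-mer's first base):
Mttp first site, chr3:138090454-138090480, minus strand: taagaattaaTATTTATgttttctgat
Mttp second site, chr3:138090024-138090050, minus strand: catttaaacaTATTTATtagtaaagca
Of the 10529 tested genes with an annotated region, 29.1% held at least 1 copy, and of the 5558 with a region no longer than that of Mttp, 13.8% did. Fgf21 held 4 copies in 134 bases. A match describes the sequence only and does not show binding.

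With all 16 libraries and the FPKM as deposited, no member passed the test in any comparison. The count was 0 of 10 with limma at an adjusted p under 0.05 in all 7 contrasts, and 0 of 10 also with voom on the recovered reads. Among all tested genes, ethanol against control diet called 4.18% in WT and 0.425% in LKO. At an unadjusted p under 0.05 these contrasts held 2 and 1 of the 10 members, against 19.69 and 9.19% of all genes. LKO against WT called 0.00885% among control-fed and 0.0797% among ethanol-fed livers, and 0 and 4 members had an unadjusted p under 0.05, against 3.45 and 11.92% of genes. The interaction, which is the ethanol difference in LKO minus that in WT, called 0% of genes, and no member had an unadjusted p under 0.05, against 3.20% of genes. Averaged over genotypes, ethanol called 7.78% of genes, and averaged over diets, LKO against WT called 0.142%. These averages held 2 and 3 members at an unadjusted p under 0.05, against 21.61 and 10.41% of genes.

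Without WT ethanol library 2, 3 members passed the test. Apoa4 rose and Apoa2 fell with ethanol in WT, where 9.48% of all genes were called, and both did so in the average over genotypes, where 20.5% were called. Mttp was higher in LKO than in WT averaged over diets, where 1.07% of genes were called. No member passed for ethanol in LKO (3.62% of genes), for LKO against WT when control-fed (0.0443%) or ethanol-fed (0.221%), or for the interaction (0%). At an unadjusted p under 0.05 those 4 contrasts held 2, 4, 5 and 1 members, against 18.99, 9.60, 17.14 and 4.42% of all genes.

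**Figure D2:**
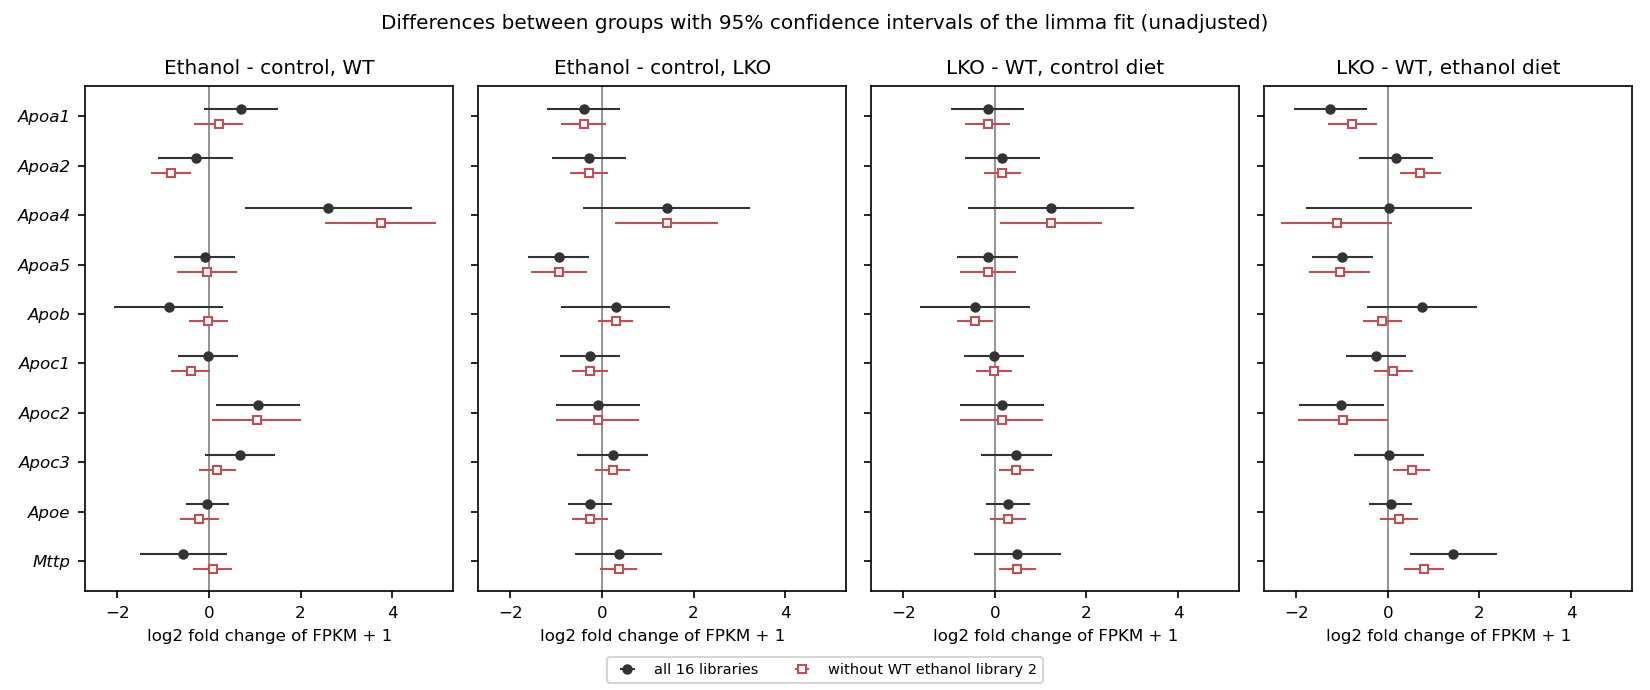
Log2 fold change of FPKM + 1 for each member in the 4 group comparisons, with unadjusted 95% confidence intervals of the limma fit, for all 16 libraries (filled circles) and without WT ethanol library 2 (open squares). Without that library the Apoa4 difference with ethanol in WT is 3.75 and its interval is narrower, and the Apob difference lies near 0.

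The groups were also compared by whether their values overlapped. With all libraries, ethanol and control values did not overlap for 0 of 10 members in WT, against 10.1% of all genes, and for 2 in LKO (Mttp higher, Apoa5 lower), against 12.3%. LKO and WT values did not overlap for 2 members on the control diet (Apoa4 and Apoc3 higher in LKO), against 9.25% of genes, and for 3 on the ethanol diet (Mttp higher, Apoa1 and Apoa5 lower), against 2.69%. Without WT ethanol library 2 the count was 3 for ethanol in WT (Apoa4 higher, Apoa2 and Apoc1 lower), against 20.7% of genes. It was 4 for LKO against WT on the ethanol diet (Apoc3 and Mttp higher, Apoa1 and Apoa5 lower), against 7.03%. The comparisons share groups, so these counts do not add up as separate evidence.

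Apoa4 had the widest range of the 10 as a ratio of its highest to its lowest value. In WT it measured 78.1, 120.2, 66.3 and 84.2 FPKM in control libraries 1 to 4 and 512.7, 47.6, 1123 and 2718 in ethanol libraries 1 to 4. The LKO control libraries measured 268.2, 204.4, 159.3 and 183.6 and the LKO ethanol libraries 468.4, 1844, 355.4 and 264.3. In WT every ethanol library other than 2 lay above all 4 control libraries, and library 2 lay below them. In LKO the lowest ethanol value was just under the highest control value, so those groups overlapped. With all libraries the log2 fold change with ethanol in WT was 2.61 (SE 0.86, adjusted p = 0.0973). Without library 2 it was 3.75 (SE 0.57, adjusted p = 0.00247), with 1451 ± 1139 FPKM (SD, n = 3) on ethanol and 87.2 ± 23.2 (SD, n = 4) on control diet, while the median over all genes was 0.17. Leaving out WT ethanol library 4, the highest, gave 1.82. In LKO it was 1.41 (adjusted p = 0.707, and 0.154 without WT ethanol library 2), and 0.82 when LKO ethanol library 2 was left out. Averaged over genotypes it was 2.01 (adjusted p = 0.0525), and without library 2 it was 2.58 (adjusted p = 0.000547). With all 16 libraries, Apoa4 passed the test in WT after median-of-ratios scaling (2.64, adjusted p = 0.0423) and after upper-quartile scaling (2.61, adjusted p = 0.0453).

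Between genotypes on the control diet, Apoa4 was higher in all 4 LKO libraries than in any WT library, by 1.22 on the log2 scale (95% interval −0.59 to 3.04, adjusted p = 0.9997). That interval narrowed to 0.10 to 2.35 without WT ethanol library 2 (adjusted p = 0.490), which is in neither group but enters the shared estimate of spread. On the ethanol diet the groups overlapped, with a difference of 0.03 (adjusted p = 0.995) that became −1.12 (adjusted p = 0.318) without library 2. The interaction for Apoa4 was −1.20 (SE 1.22, adjusted p = 0.927) with all libraries and −2.34 (SE 0.78, adjusted p = 0.968) without library 2. Within the sides of the split, without library 2, the ethanol difference in WT was 2.39 and 4.53, the first from 1 ethanol library, and in LKO it was 1.98 and 0.84. LKO against WT on the ethanol diet was 0.86 on the first side and −2.51 on the other, opposite in direction.

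Apoa2, the second protein of high density lipoprotein, measured 11460, 10040, 14230 and 11930 FPKM in WT control libraries 1 to 4. In WT ethanol libraries 1 to 4 it measured 8156, 29520, 6248 and 5803, so 3 libraries lay below every control and library 2 lay above all of them. LKO control libraries ranged from 12010 to 15870 and LKO ethanol libraries from 8045 to 12640, and these ranges overlapped. The log2 fold change with ethanol in WT was −0.29 (SE 0.39, adjusted p = 0.717) with all libraries. Without library 2, Apoa2 fell with ethanol in WT (−0.83, SE 0.21, adjusted p = 0.0236) and averaged over genotypes (−0.555, adjusted p = 0.0133). In LKO the difference was −0.28 (95% interval −1.10 to 0.53, and −0.70 to 0.13 without WT ethanol library 2). The interaction was 0.01 (adjusted p = 0.999) with all libraries and 0.545 (adjusted p = 0.968) without library 2. Within the sides the ethanol differences in WT were −0.40, from 1 ethanol library, and −1.11, and those in LKO were −0.39 and −0.17. LKO against WT averaged over diets was 0.17 (adjusted p = 0.876) with all libraries and 0.44 (adjusted p = 0.118) without library 2. It passed the test when a term for the sides was added to the latter fit (0.45, adjusted p = 0.0424).

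Apoa1, the main protein of high density lipoprotein, showed lower values in LKO on the ethanol diet. The 4 LKO ethanol libraries measured 4725, 6653, 5533 and 4587 FPKM and the WT ethanol libraries 7660, 34500, 9077 and 10780, so the groups did not overlap with or without library 2. The log2 difference was −1.25 (SE 0.38, adjusted p = 0.250) with all libraries and −0.77 (SE 0.25, adjusted p = 0.176) without library 2. It reached adjusted p = 0.0456 at −1.497 when WT ethanol library 1 was left out and library 2 kept. On the control diet Apoa1 measured 8116 ± 2489 FPKM in WT and 7105 ± 1376 in LKO (SD, n = 4 each), a difference of −0.16 (95% interval −0.96 to 0.64). With ethanol it differed by 0.70 in WT (adjusted p = 0.330, 0.21 without library 2) and by −0.40 in LKO (adjusted p = 0.893). The interaction was −1.095 (adjusted p = 0.927) with all libraries and −0.61 (adjusted p = 0.968) without library 2. In WT control libraries, 1 and 2 lay at 5675 and 6362 FPKM and 3 and 4 at 9601 and 10830, a spread that followed the sides.

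Apob, the structural protein of very low density lipoprotein, stayed within narrow limits outside 1 library. It ranged from 326.8 to 445.4 FPKM in WT control, 245.2 to 352.6 in LKO control and 278.9 to 420.5 in LKO ethanol libraries. In WT ethanol libraries 1, 3 and 4 it measured 334.8, 375.1 and 429.3 FPKM, and in library 2 it measured 32.9. The ethanol difference in WT was −0.88 (95% interval −2.08 to 0.32) with library 2 and −0.01 (−0.43 to 0.41) without it. In LKO it was 0.30 (95% interval −0.90 to 1.497). With the control diet, LKO against WT was −0.43 (adjusted p = 0.9997, 0.488 without library 2), with overlapping groups. With ethanol it was 0.75, which became −0.12 without library 2.

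Mttp, the lipid transfer subunit that loads Apob, had its highest values in LKO livers on ethanol. On the control diet it measured 65.8, 118.4, 71.1 and 85.9 FPKM in WT and 123.8, 99.0, 131.6 and 117.4 in LKO. On the ethanol diet it measured 73.2, 13.9, 96.0 and 96.0 in WT and 166.4, 135.7, 162.6 and 143.8 in LKO. Every LKO ethanol library was above all other libraries of the study, and on the control diet the groups overlapped through WT library 2. Among control-fed livers the log2 difference LKO against WT was 0.49 (adjusted p = 0.9997), and among ethanol-fed livers it was 1.43 (SE 0.45, adjusted p = 0.258). Without WT ethanol library 2, the value on the ethanol diet was 0.78 (SE 0.20, adjusted p = 0.127). Averaged over diets it was 0.96 (SE 0.32, adjusted p = 0.321) with all libraries and 0.64 (SE 0.14, adjusted p = 0.0449) without library 2, when the median over all genes was −0.18. With a term for the sides as well it was 0.64 (adjusted p = 0.0156). Within the sides it was 0.32 and 0.66 for control-fed and 1.03 and 0.67 for ethanol-fed livers, the 1.03 with 1 WT ethanol library. The ethanol difference of Mttp was −0.57 in WT (0.08 without library 2) and 0.37 in LKO (adjusted p = 0.939), where the groups did not overlap. The interaction was 0.93 (adjusted p = 0.927) and 0.29 without library 2 (adjusted p = 0.968).

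Apoa5, a secreted activator of plasma triglyceride hydrolysis, had its lowest values in LKO livers on ethanol. The LKO ethanol libraries measured 528.0, 391.4, 193.8 and 571.8 FPKM, all below the LKO control libraries at 918.7, 587.2, 846.2 and 687.4. WT control libraries ranged from 609.8 to 1035 and WT ethanol libraries from 699.4 to 860.2, where library 2 was the lowest and inside the WT control range. The ethanol difference in LKO was −0.94 (SE 0.32, adjusted p = 0.270, and 0.0866 without WT ethanol library 2). In WT it was −0.09 (95% interval −0.76 to 0.57), and −0.04 (−0.71 to 0.62) without library 2. LKO against WT on the ethanol diet was −0.998 (SE 0.32, adjusted p = 0.258) with all libraries and −1.05 (SE 0.31, adjusted p = 0.1504) without library 2. The interaction was −0.85 (SE 0.45, adjusted p = 0.927), and −0.90 (SE 0.42, adjusted p = 0.968) without library 2, so a difference between the 2 ethanol responses was not detected. Leaving out LKO ethanol library 3 moved the ethanol difference in LKO to −0.61 and the genotype difference on ethanol to −0.66. With a term for the sides and without WT ethanol library 2, the ethanol difference in LKO passed the test (−0.94, adjusted p = 0.0433).

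Apoc2, the cofactor of lipoprotein lipase, varied widely within the ethanol groups. In WT ethanol libraries 1 to 4 it measured 292.7, 685.9, 621.8 and 1323 FPKM, and in LKO ethanol libraries 350.1, 709.0, 162.4 and 245.9. The control libraries lay at 279.6 to 327.3 in WT and 235.9 to 390.7 in LKO. With ethanol, 3 of 4 WT libraries were above all controls and library 1 was among them. The difference with ethanol was 1.07 in WT (SE 0.44, adjusted p = 0.181, 0.166 without library 2) and −0.09 in LKO (95% interval −1.01 to 0.83). In WT it passed the test when library 1 was left out (1.45, adjusted p = 0.0419). The interaction was −1.16 (SE 0.62, adjusted p = 0.927) with all libraries and −1.13 (SE 0.63, adjusted p = 0.968) without library 2. Within the sides, without library 2, the ethanol difference in WT was −0.15 and 1.68, the first from 1 ethanol library. LKO against WT on the ethanol diet was 0.77 and −2.18, opposite in direction, the first again with 1 WT ethanol library.

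Apoc3, an inhibitor of lipolysis and of remnant uptake, was higher in every LKO control library (4463, 3424, 3186 and 4012 FPKM) than in any WT control library (2543, 2953, 2482 and 2858). On the ethanol diet the LKO libraries measured 4629, 4363, 4614 and 3985 and the WT libraries 3812, 12140, 2414 and 3105. Without library 2 the LKO ethanol values were all above the WT ethanol values. LKO minus WT was 0.47 for control-fed livers (95% interval −0.30 to 1.24, adjusted p = 0.9997, and 0.09 to 0.84, adjusted p = 0.429, without WT ethanol library 2). For ethanol-fed livers it was 0.02, which became 0.52 (95% interval 0.12 to 0.93, adjusted p = 0.213) without library 2. Averaged over diets it was 0.25 (SE 0.26, adjusted p = 0.796) with all libraries and 0.50 (adjusted p = 0.0764) without library 2. It passed the test only when a term for the sides, set from these same values, was added to the latter fit or with array weights (0.48, adjusted p = 0.0224, and 0.61, adjusted p = 0.00368). Ethanol differences were 0.68 in WT (0.18 without library 2) and 0.23 in LKO.

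Apoc1, a small apolipoprotein that hinders receptor uptake of remnants, ranged from 5992 to 6419 FPKM in WT control and from 4006 to 5735 in WT ethanol libraries other than 2, which measured 13370. Those 3 ethanol values lay below every control, but the difference was −0.02 (adjusted p = 0.981) with all libraries and −0.40 (adjusted p = 0.222) without library 2. LKO control libraries ranged from 4685 to 7191 and LKO ethanol libraries from 4465 to 6125. Apoe, the receptor ligand of remnant particles, ranged from 15220 to 20750 FPKM in WT control and 13400 to 24190 in WT ethanol libraries (13400 to 18950 without library 2). It ranged from 19290 to 23460 in LKO control and from 15930 to 22300 in LKO ethanol libraries. The Apoe groups overlapped in all 4 group comparisons. Its largest log2 difference among the 4 group comparisons was 0.29, LKO against WT on the control diet (95% interval −0.19 to 0.76).

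WT ethanol library 2 departed from the other 3 WT ethanol libraries in opposite directions for different members. Relative to their median, its FPKM + 1 was 4.72 times for Apoa2, 3.91 times for Apoc3, 3.80 times for Apoa1, 2.95 times for Apoc1 and 1.78 times for Apoe. It was 0.154 times for Mttp, 0.0900 times for Apob and 0.0432 times for Apoa4, and it was 1.10 times for Apoc2 and 0.883 times for Apoa5. The members above their group had gene lengths of 487 to 1386 bases, and the 3 far below had 1815, 4272 and 13934 bases. Across all tested genes the median log2 difference of that library was 0.22 for the 411 genes under 600 bases and −1.03 for the 2935 genes from 4000 to under 8000 bases. The medians of the 15 other libraries lay between −0.42 and 0.48 in each length class. Spearman's rho of the difference with gene length, over 11298 genes, was −0.178 in that library, inside the range of −0.381 to 0.439 in the 15 others. Apob at −3.47 and Apoa4 at −4.53 lay far below the medians of their classes, −0.87 and −0.69. Red cell markers summed to 1930 FPKM in that library against 95.2 to 282.0 in the others, and cholangiocyte markers to 75.0 against 10.8 to 28.5. Markers of stellate cells and fibroblasts summed to 18.0 FPKM against 39.2 to 168.0, and those of endothelium to 11.5 against 32.5 to 99.9. The part of RNA quality or other cells in its values was not tested.

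**Figure D3:**
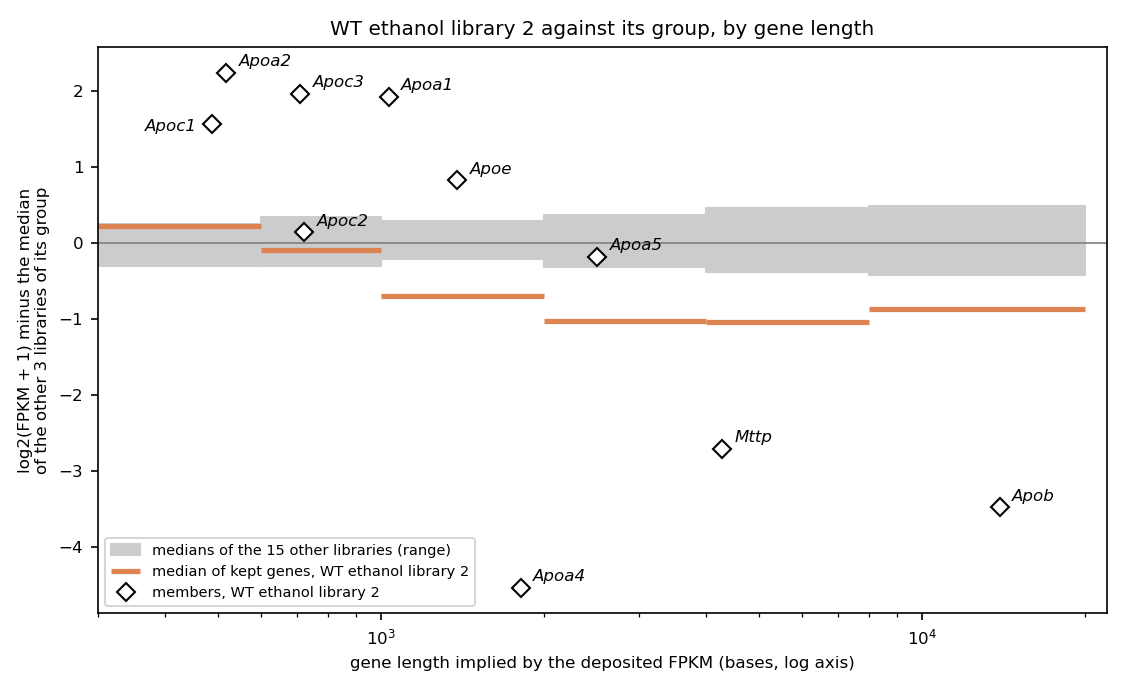
Difference of log2(FPKM + 1) between WT ethanol library 2 and the median of the other 3 libraries of its group, against gene length in bases (log axis). Orange lines are medians over tested genes in 6 length classes, grey bands the range of such medians in the 15 other libraries, and diamonds the 10 members, of which Apoa4, Mttp and Apob lie below the median of their class and the other 7 above it.

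Members were also compared with each other across the 15 libraries other than WT ethanol library 2, as a description and without a test. The pairs given here are not all those with an r of this size. Apoa2 and Apoc1 had 0.73, Apoa2 and Apoc2 −0.72, and Apoa4 and Apoc1 −0.70. Apoa4 and Apoc2 had a Pearson r of 0.72 (Spearman 0.53), which was 0.90 after the group means were removed and 0.33 without the 2 libraries farthest out in Apoa4 (WT ethanol 4 and LKO ethanol 2). Over all 16 libraries r was 0.51. The pair is on 2 chromosomes, and the libraries with the most Apoa4 also held the most Apoc2. Mttp and Apoc3, whose LKO ethanol values all lay above the WT ethanol values outside library 2, had r = 0.74 (Spearman 0.79), which came to 0.08 with the group means removed and to −0.50 over all 16 libraries. Apoa2 and Apoa4 went in opposite directions, with r = −0.79, −0.84 with the group means removed and −0.80 over 16 libraries. Without WT ethanol libraries 3 and 4 as well, r over the 15 libraries became −0.60. The points of each pair share a library and its scaling.

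**Figure D4:**
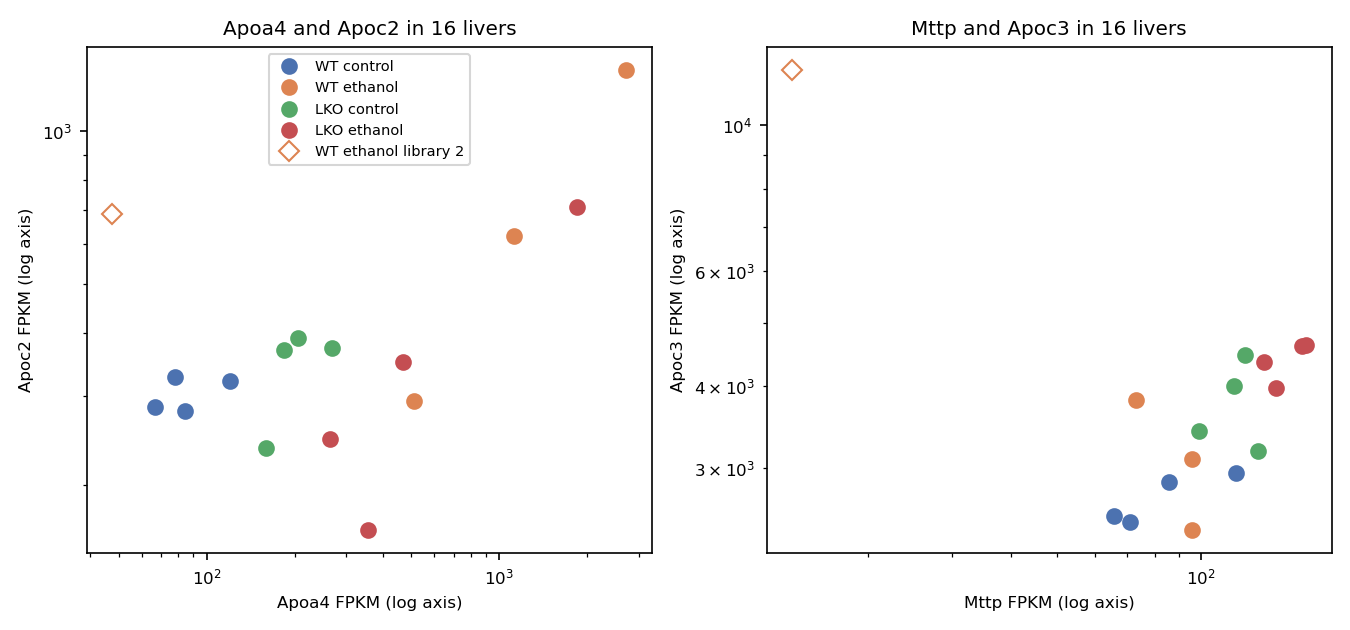
FPKM of Apoc2 against Apoa4 and of Apoc3 against Mttp in each of the 16 libraries (both axes log), coloured by group, with WT ethanol library 2 as an open diamond. The 3 libraries with over 1000 FPKM of Apoa4 are also high in Apoc2, and the LKO ethanol libraries lie at the upper right for Mttp and Apoc3, with WT ethanol library 2 apart in both.

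The promoters of Apoa4 and Apoc2 are shown because their r over the 15 libraries was 0.90 after the group means were removed. With the means kept, r was 0.72, and 0.33 without WT ethanol library 4 and LKO ethanol library 2. Each promoter runs from 250 bases before to 50 after the RefSeq start site. RefSeq tables on GRCm38.p6 gave 12 promoters for 8 of the 10 members. The capitals mark AGGTCA, the half-site of many nuclear receptors, searched on both strands (TGACCT on the other strand).
Apoa4, chr9:46240594-46240893, plus strand: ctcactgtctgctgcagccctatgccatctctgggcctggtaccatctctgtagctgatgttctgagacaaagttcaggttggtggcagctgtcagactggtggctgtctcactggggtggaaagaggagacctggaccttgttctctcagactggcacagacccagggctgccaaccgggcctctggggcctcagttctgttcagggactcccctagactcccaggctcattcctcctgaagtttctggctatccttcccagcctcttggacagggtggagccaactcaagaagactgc
Apoc2, chr7:19677892-19678191, minus strand: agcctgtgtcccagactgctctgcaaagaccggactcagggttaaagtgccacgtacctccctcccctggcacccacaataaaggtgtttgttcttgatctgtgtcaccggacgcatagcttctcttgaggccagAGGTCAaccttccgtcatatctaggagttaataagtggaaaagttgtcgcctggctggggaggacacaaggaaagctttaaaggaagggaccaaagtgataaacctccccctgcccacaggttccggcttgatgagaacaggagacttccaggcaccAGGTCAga
The Apoc2 promoter held 2 copies and the Apoa4 promoter none. Among all 32851 promoters of the table, 16.26% held at least 1 copy, and among the 12 promoters of members 2 did, that of Apoc2 and 1 of Apoa2. CAAAGTCCA, an HNF4A-type element, was in 0.47% of promoters and in none of the members'. TATAAA on the gene strand was in 8.32% of promoters and in 5 of the 12, which belong to Apoa2, Apoa5, Apob and Apoe. The RefSeq start of Apoa4 lies inside the GENCODE gene, so upstream sequence of other starts is not shown.

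The genes most like each member over the 15 libraries, among 10553 protein-coding genes with a symbol, were found by the highest Pearson r of log2(FPKM + 1). For Apoa4 this was Capn2 (r = 0.973, 0.970 over all 16 libraries), a calpain protease subunit, and for Mttp it was Gpd2 (0.964, 0.888), the mitochondrial glycerol-3-phosphate dehydrogenase. For Apoc2 it was Maged2 (0.938, 0.767), for Apob Gtf2a1 (0.911, 0.940), a subunit of a general transcription factor, and for Apoa2 Cyp8b1 (0.911, 0.506), the sterol 12-alpha-hydroxylase of bile acid synthesis. For Apoe it was Ugt2b5 (0.901, 0.376), for Apoc3 Hsd17b10 (0.881, 0.652) and for Apoa1 S100pbp (0.877, −0.063). For Apoc1 it was Serpina1c (0.849, 0.913), an alpha-1-antitrypsin gene, and for Apoa5 Glyat (0.839, 0.795), glycine N-acyltransferase. The r of Apoa1 with S100pbp came from the 15 libraries alone, and each r is the highest of many.

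A list of 65 other genes of lipoprotein metabolism was counted in the same fits, and 63 of them were tested. With all libraries, 2 rose and 5 fell with ethanol in WT (4.18% of all genes were called), 3 rose and 5 fell in the average over genotypes (7.78%), and none passed in the other 5 contrasts. Without WT ethanol library 2 the counts were 4 up and 5 down in WT (9.48% of all genes), 2 up and 2 down in LKO (3.62%), and 6 up and 9 down in the average (20.5%). In that fit 2 were lower in LKO averaged over diets (1.07%), and 0 passed in the remaining contrasts. Medians of the list by role lay between −0.43 and 0.42 in all contrasts with all 16 libraries, against −0.10 to 0.09 for all genes. A count of a chosen list shows nothing particular to the list.

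Among genes of particle assembly and export, Ces1d and Ces1g, carboxylesterases that hydrolyse stored lipid, fell with ethanol in WT (−2.34, SE 0.40, adjusted p = 0.00572, and −1.35, SE 0.35, adjusted p = 0.0384). Ces1d measured 813.7 ± 193.3 FPKM in WT control and 178.6 ± 98.9 in WT ethanol libraries (SD, n = 4 each), with no overlap. Without library 2 the log2 values were −2.28 (adjusted p = 0.00576) for Ces1d and −1.19 (adjusted p = 0.0386) for Ces1g. Plin2, the coat protein of lipid droplets, and Pla2g12b, a factor in very low density lipoprotein secretion, rose in the ethanol average only in the fit without library 2 (1.07, adjusted p = 0.0245, and 0.77, adjusted p = 0.0193). Among the other apolipoproteins, 6 of 7 were tested and none passed with all libraries. Without library 2, Apof and Apon fell in the ethanol average (−0.33, adjusted p = 0.0414, and −0.64, adjusted p = 0.0255).

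Among the lipases and receptors, Lipg, endothelial lipase, fell with ethanol in WT (−2.52, adjusted p = 0.00446), from 12.2 ± 3.26 to 1.69 ± 1.87 FPKM (SD, n = 4 each, as for the next genes). Lpl, lipoprotein lipase, rose by 1.94 (adjusted p = 0.0481), from 3.05 ± 0.528 to 21.9 ± 22.4 FPKM, and its lowest ethanol value of 3.13 lay inside the control range. Vldlr, the very low density lipoprotein receptor, rose by 0.999 (adjusted p = 0.0429), from 1.09 ± 0.243 to 3.48 ± 1.94 FPKM, and its lowest ethanol value, 1.23 in library 2, lay inside the control range as well. Sdc1, a proteoglycan that takes up remnants, rose in the ethanol average (0.95, adjusted p = 0.0163). Without library 2 the ethanol values in WT were −2.13 for Lipg (adjusted p = 0.00349), 2.04 for Lpl (adjusted p = 0.0386) and 1.30 for Vldlr (adjusted p = 0.00268), and the average for Sdc1 was 1.14 (adjusted p = 0.000149). The ethanol difference in LKO passed in that fit for Lipg (−1.77, adjusted p = 0.0110), Vldlr (1.06, adjusted p = 0.00768) and Sdc1 (1.10, adjusted p = 0.00618). Also without library 2, Vldlr (−0.76, adjusted p = 0.0230) and Angptl4 (−0.72, adjusted p = 0.0494), an inhibitor of lipoprotein lipase, were lower in LKO averaged over diets.

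Among 20 tested regulators, Srebf1 and Mlxipl, which drive fat synthesis genes, fell with ethanol in WT (−2.27, adjusted p = 0.0133, and −1.97, adjusted p = 0.0279). Without library 2 these became −1.90 (adjusted p = 0.0132) and −1.60 (adjusted p = 0.0360), and Srebf1 also fell with ethanol in LKO (−1.90, adjusted p = 0.0177). In the average over genotypes Ppara, the receptor of fatty acid oxidation genes, fell as well (−1.22, adjusted p = 0.0294, and −0.97, adjusted p = 0.0130, without library 2). Creb3l3, a transcription factor of fasting and triglyceride metabolism, rose by 0.56 (adjusted p = 0.0330, and by 0.57, adjusted p = 0.00366, without library 2), from 125.5 ± 21.6 to 191.7 ± 6.02 FPKM in WT and from 131.1 ± 17.8 to 185.0 ± 12.4 in LKO (SD, n = 4 each). Its 8 ethanol libraries, WT ethanol library 2 included at 183.9, lay above its 8 control libraries. Hnf4a, a nuclear receptor of hepatocyte genes, did not pass (−0.17 in the average, adjusted p = 0.833, and 0.17, adjusted p = 0.492, without library 2), with 22.2 FPKM in WT ethanol library 2 and 148.0 to 163.8 in the other WT ethanol libraries.

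Markers of other tissues that make apolipoproteins or store fat were low, apart from 1 in each list. Of 6 enterocyte markers 1 was tested, Fabp2, which liver also expresses, at 30.2 to 156.3 FPKM. The others, Vil1, Sis, Lct, Alpi and Cdx2, were at most 0.458 FPKM outside WT ethanol library 2, where Sis was at 2.77. Of 4 adipocyte markers 1 was tested, Cidec, also a droplet protein of fatty liver. It ranged from 2.43 to 4.30 FPKM in WT control and from 25.2 to 95.1 in the WT ethanol libraries other than 2, and from 2.77 to 76.5 in LKO ethanol libraries. Adipoq, Plin1 and Lep were at most 0.475 FPKM in every library, with Lep at 0 in all. Cidec, like Apoa4, was highest in ethanol libraries, and its part in the results was not tested.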

How the data were processed

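The authors deposited 1 table of FPKM values for mouse liver RNA, with 1 value per gene and library. Per the submitters' processing notes, the tools were fastp, STAR 2.6.1, HTSeq and DESeq2 and the build was mm10; their settings are not given in the sources used here. Genes with FPKM of at least 1 in at least 4 of 16 libraries were kept (11298), and log2(FPKM + 1) went into a group-means model of the R package limma (3.58.1, R 4.3.3; eBayes with trend), two-sided, with Benjamini-Hochberg adjustment over all kept genes and calls at an adjusted p under 0.05. Fold changes on this scale understate those of low genes. Whole reads were recovered from the FPKM steps: 100% of values lay within 0.1 of a whole read over 20520 genes, and voom on those reads was an added alternative. The scripts were tested on simulated data. Group numbers of libraries follow the order of the records and were not used to pair libraries. Positions come from GENCODE M21 on GRCm38, sequences from GENCODE and RefSeq. Printed FPKM values have at most 4 significant digits. The 10 members, the lists of other genes and the marker lists were chosen with earlier results of these data known. Named genes were all members, at most 3 called genes per role of the pathway list and contrast, and the gene most like each member; Hnf4a falls outside this rule and was added after its values were seen, and Creb3l3 meets it only without WT ethanol library 2. Alternatives covered the pseudocount, filter, scaling, weights, groups fitted, sides, blocks by title numbers and each library in turn.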

Additional observations from a re-analysis of the deposited data

Results flagged for a closer look

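In 6 of the 40 sets of 4 libraries (10 members in 4 groups), 1 library lay so far from its nearest neighbour that the gap passed Dixon's 95% critical value. Chance gives such a gap in about 1 of 20 sets. Of these, 3 were WT ethanol library 2, with 34500 FPKM of Apoa1, 29520 of Apoa2 and 12140 of Apoc3, against at most 10780, 8156 and 3812 in the other WT ethanol libraries. LKO ethanol library 2 held 1844 FPKM of Apoa4, against 264.3 to 468.4 in the rest of its group. LKO control library 3 held 235.9 FPKM of Apoc2, against 368.6 to 390.7. LKO ethanol library 1 held 22300 FPKM of Apoe, against 15930 to 16820.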

How the results depend on the processing

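The count of the 10 members called was 0 in every contrast with all libraries as deposited. For ethanol in WT it was 5 with array weights (38.4% of all genes called), 2 with a term for the sides (without WT ethanol library 2, 19.7%), 1 with median-of-ratios (6.77%) and 1 with upper-quartile scaling (6.75%), and 0 to 2 when 1 library was left out (1.29 to 9.48%). For ethanol in LKO it was 1 with the side term (10.7%). For LKO against WT on the ethanol diet it was 7 with array weights (30.7%) and 0 to 1 with a library left out (at most 3.43%). For the interaction it was 2 with array weights (4.48%). For the ethanol average it was 5 with array weights (36.7%), 2 with the side term (32.6%), 1 with median-of-ratios (11.8%), quantile (12.9%) or upper-quartile scaling (11.6%), and 0 to 2 with a library left out (4.59 to 20.5%). For LKO against WT averaged it was 6 with array weights (34.1%), 3 with the side term (Apoa2, Apoc3 and Mttp, 11.1%) and 0 to 1 with a library left out (at most 1.07%). The sides were set from these same values, so p-values with the side term tend to be too small. The array weights came from the gene-by-gene method, because the REML method did not converge. They ranged from 0.0418 for WT ethanol library 2 to 4.998 for WT ethanol library 3, and with them Apoa4 was lower in LKO on the ethanol diet (−1.53, adjusted p = 0.0139), against 0.03 with equal weights. Left-out libraries behind the calls were WT ethanol 2 (Apoa4, Apoa2, Mttp), WT ethanol 1 (Apoc2, Apoa1) and LKO ethanol 4 (Apoa4 in the ethanol average). Scaling moved the median of all genes by at most 0.11, in the interaction. The groups share no replicate number in the labels, so nothing in them pairs libraries. Numbers in the sample titles, whose meaning is not given in the sources used here, follow each other from a control to an ethanol library in 5 cases (3 in WT, 2 in LKO). A fit with these as a replicate block, added after seeing the data and leaving out the 6 other libraries, called 0 members for ethanol in WT, in LKO, in the average and in the interaction (0.00885, 0.00885, 0.00885 and 0% of all genes). Within those 5 the deviations from the group means correlated at −0.063 to 0.453.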
